A study of Zea mays with 6 samples.

Results

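The miR169 guide strands and the NF-YA transcripts they are listed against were followed in maize ovaries. Guide strands were taken as every known miRNA named for the miR169 family whose arm is not 3p. There were 6 of them among 161 known miRNAs in the small RNA table. Their NF-YA targets were the miR169 degradome entries whose transcription factor family is NF-YA or whose annotation names subunit A of nuclear factor Y. These came to 66 entries of 471, covering 11 transcripts of 3 genes among the 113 target genes listed. Neither choice used a measured value.

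Ovaries with incompletely fused carpels (IFC) were set against ovaries with completely fused carpels (CFC), which the sample labels call wild-type. In an IFC ovary the carpel wall does not close, and in a CFC ovary it does. All ovaries came from 1 inbred line, Yu-A474, grown in the field without stress and sampled before pollination, and both phenotypes were taken from the same ear, so that IFC and CFC ovaries share a genotype and carry no added agent. Small RNA was sequenced from 2 IFC and 2 CFC samples, and the degradome from 1 IFC and 1 CFC library, each a mix of the 2 ovary samples of its phenotype. No miRNA defines the ovary, so the labelled tissue could not be checked against a marker of its own.

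miR169 is a conserved plant miRNA that guides cleavage of mRNAs coding for NF-YA, the subunit through which the trimeric factor NF-Y recognises the CCAAT box in promoters. The other subunits, NF-YB and NF-YC, form the dimer that NF-YA joins, and their mRNAs are not miR169 targets. In petunia and snapdragon, loss of a miR169 gene lets organ identity genes of the inner whorls act in outer floral organs, and in Arabidopsis and other plants the family is known for its response to drought and nitrogen supply.

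The mature sequences are given because the guides are near copies of each other, so that single bases decide which name a read receives. They are written 5′ to 3′ with T for U as in the deposited table, with the seed, bases 2 to 8, in capitals.
miR169p-5p: tAGCCAAGgatgacttgccgg
miR169a-5p: cAGCCAAGgatgacttgccga
miR169c-5p: cAGCCAAGgatgacttgccgg
miR169f-5p_R+2: tAGCCAAGgatgacttgcctaca
miR169f-5p_R-3: tAGCCAAGgatgacttgc
miR169l-5p_R+1: tAGCCAGGgatgatttgcctgt

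In the names, R+2 or R-3 marks a sequence that is longer or shorter at its 3′ end than the registered miRNA. Positions are counted from 1 at the 5′ end, with the base of miR169p-5p first. Against miR169p-5p, miR169c-5p differed by T1C, and miR169a-5p by T1C and G21A. miR169f-5p_R+2 differed by G20T and G21A over the shared length. The 18 bases of miR169f-5p_R-3 were the first 18 of miR169p-5p, so nothing in that read tells a trimmed miR169p-5p from a trimmed miR169f-5p. These 5 guides shared the seed AGCCAAG and 17 bases in all, from base 2 onward. miR169l-5p_R+1 stood apart with the seed AGCCAGG, through A7G, and it also carried C14T and G20T.

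Across the 13 miR169 sequences of both arms, 10 distinct hairpins were given with coordinates, on a build that the sources used here do not give. The hairpin listed for miR169p-5p lay on chromosome 7, minus strand, at chr7:111158273-111158337, and is printed with the guide in capitals because it is the one listed for the most abundant guide. Its 65 bases held the guide at bases 2 to 22.
miR169p hairpin: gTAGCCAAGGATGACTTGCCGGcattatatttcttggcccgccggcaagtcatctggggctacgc
The hairpin listed for miR169l-5p_R+1 was on chromosome 1 (plus strand, 298356366 to 298356454), that for miR169c-5p on chromosome 9 (minus strand, 109158884 to 109159009) and that for miR169a-5p on chromosome 8 (plus strand, 4792715 to 4792870). The hairpins listed for the 2 miR169f sequences were both on chromosome 5, plus strand, 40139 bases apart. Whether these loci are exonic, intronic or intergenic was not analysed here. The 18 bases of miR169f-5p_R-3 occurred in 3 of the 10 hairpins, and miR169c-5p and miR169a-5p in 2 each.

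The level of a guide is its normalized expression (NE), reads of the sequence per 1000000 clean reads of its library (RPM). The commonest NE value of a library, taken as 1 read, was 1.15 and 0.837 NE in the IFC libraries and 0.717 and 0.879 NE in the CFC libraries. Lower values above 0 also occur and are read as fractions of a read. On that reading the divisors were 873087 and 1194843 reads for IFC and 1394658 and 1138013 reads for CFC. They are several times lower than the average numbers of valid reads in the study's text, and the difference is not accounted for here, so the read unit is an assumption on which the limits and intervals below rest. A count of 0 on that unit allows up to 3.44 and 2.51 NE in the IFC libraries and 2.15 and 2.64 NE in the CFC libraries, which is the NE of 3 reads. Intervals and limits of this kind cover counting error only, since PCR copies are not independent molecules. CFC replicate 1 held the highest value of 52 of the 161 known miRNAs and of 5 of the 6 guides, and results are given with and without it. The anther markers miR2118 and miR2275, 7 sequences in all, summed to 33.2 and 49.4 NE in IFC and 43.4 and 19.3 NE in CFC, and their part in any result was not tested. In the miR2275 pair, each was at 0 in both IFC libraries and reached at most 1.76 NE in CFC, under the NE of 3 reads. miR2118b, miR2118c and miR2118d were highest in IFC replicate 2, and miR2118a and miR2118g in CFC replicate 1.

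miR169p-5p was the most abundant guide in each of the 4 libraries. It had 40.6 and 22.0 NE in the IFC libraries, against 217 and 18.2 NE in the CFC libraries. The groups overlapped, because CFC replicate 1 was the highest library, 5.34 times the next, and CFC replicate 2 was the lowest. Counting error did not span that gap: the exact Poisson 95% intervals were 28.3 to 56.3 and 14.4 to 32.2 NE in IFC, against 193 to 242 and 11.3 to 27.9 NE in CFC. Means were 31.3 ± 13.1 NE in IFC and 117 ± 140 NE in CFC (SD, n = 2 each). The limma difference on the log2(NE + 1) scale, IFC minus CFC, was -1.06 with a standard error of 1.01 (95% interval -3.20 to 1.07, adjusted p 0.999). Without CFC replicate 1 it was 0.69, and without CFC replicate 2 it was -2.81, so the sign depended on which CFC library was kept.

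miR169a-5p was the only other guide above an NE of 1 in all 4 libraries. It had 10.3 and 14.9 NE in IFC, against 19.5 and 9.01 NE in CFC, so that the IFC values lay between the CFC values. Means were 12.6 ± 3.26 NE in IFC and 14.2 ± 7.40 NE in CFC (SD, n = 2 each), and the limma difference was -0.09 with a standard error of 0.80 (95% interval -1.80 to 1.61, adjusted p 0.999). Its spread between CFC replicates was much narrower than that of miR169p-5p, from which it differs by its first and last bases. Without CFC replicate 1 the difference was 0.42.

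The other 4 guides were at or near the limit of detection. miR169c-5p, which differs from miR169p-5p by its first base, was listed at 0 and 0.418 NE in IFC, against 5.74 and 0.220 NE in CFC. The highest of these values came from 8 reads, and the other libraries held less than 1 read, read here as reads divided among matching entries. Its limma difference was -1.27 with a standard error of 0.90 (adjusted p 0.999). It was -2.50 without CFC replicate 2, and without CFC replicate 1 it did not pass the filter for testing. Since CFC replicate 1 alone carried miR169c-5p through that filter, nothing is read from the sign of these differences. miR169l-5p_R+1, the guide with its own seed, was at 0 in both IFC libraries, against 5.02 and 0 NE in CFC. It was thus seen in CFC replicate 1 alone, in 7 reads, and its CFC mean of 2.51 NE was no higher than the NE of 3 reads in either IFC library, so no fold change is given for it.

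The 2 miR169f sequences differ in length and behaved as low, scattered values. miR169f-5p_R+2 had 0 and 1.67 NE in IFC, against 3.59 and 0 NE in CFC. It was therefore detected in 1 library of each phenotype, with 2 reads in IFC and 5 reads in CFC. miR169f-5p_R-3 had 0.191 and 1.53 NE in IFC, against 1.08 and 0.439 NE in CFC, all under the NE of 3 reads. It was the only guide whose highest library was an IFC library. Neither of these 2 guides had an adjusted limma p under 0.05 (limma difference -0.39 with a standard error of 0.90 for R+2, and 0.01 with a standard error of 0.80 for R-3). Group means were 0.837 NE in IFC and 1.79 NE in CFC for R+2, and 0.863 and 0.757 NE for R-3. All of these lay under the NE of 3 reads in every library, so the differences are printed as values only. Unlike miR169l-5p_R+1, both guides had signal in both phenotypes. Without CFC replicate 1 the differences were 0.71 for R+2 and 0.27 for R-3, but both guides then passed the filter through IFC replicate 2 alone.

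**Figure D1:**
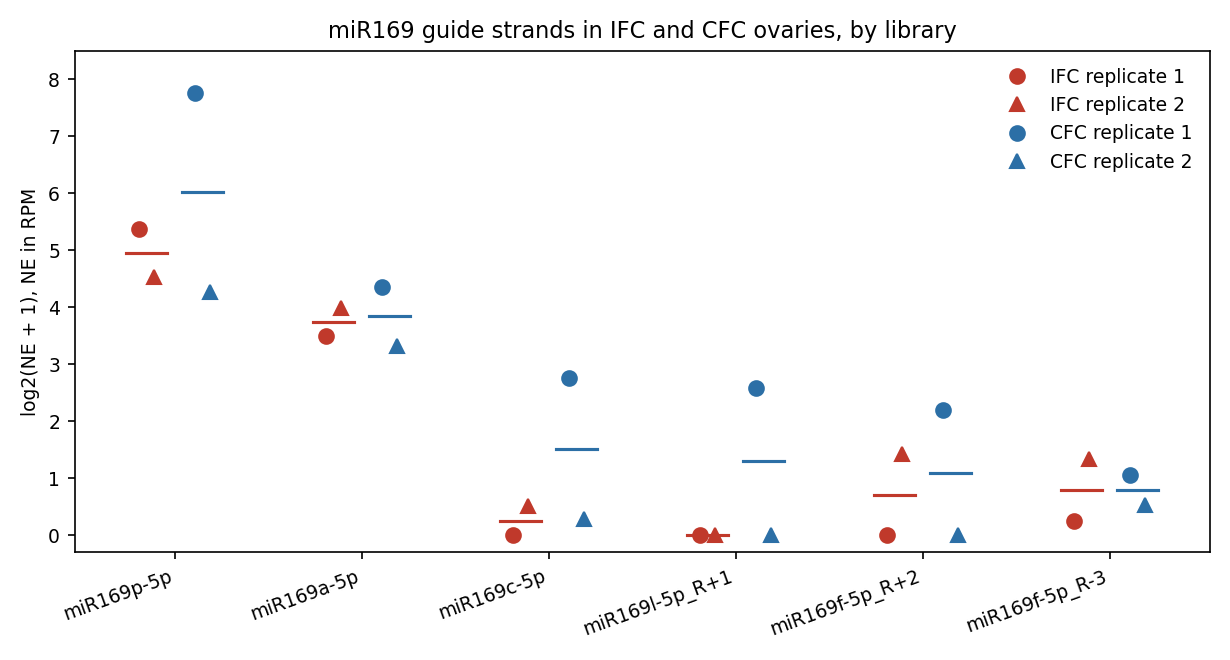
Level of each miR169 guide in each small RNA library. The horizontal axis lists the 6 guides and the vertical axis is log2(NE + 1), with NE in RPM; IFC libraries (red) stand left of CFC libraries (blue), circles are replicate 1, triangles replicate 2, and short lines are group means on the log2 scale. For miR169p-5p, CFC replicate 1 at 217 NE lies above the other 3 libraries, which sit between 18.2 and 40.6 NE.

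Of 145 known miRNAs tested with limma (Benjamini-Hochberg adjustment), 0 had an adjusted p under 0.05 (0% of those tested), and 1 had an unadjusted p under 0.05 (0.69%). Of the 6 guides, 0 met either threshold. An exact permutation test of 2 against 2 libraries cannot give a p below 0.3333. In 0 of the 6 guides did the IFC and CFC values separate without overlap, where 22.8% of the known miRNAs tested did so (14.5% with both IFC libraries lower and 8.28% with both higher). By sign alone, 5 of 6 fitted differences were below 0, although that of miR169a-5p turned to 0.023 under TMM scaling. The 1 guide above 0, miR169f-5p_R-3 at 0.01, turned to -0.036 under median-of-ratios scaling, to -0.015 under TMM scaling and to -0.037 with a pseudocount of 0.5. The median of the 6 was -0.73, against -0.02 for all 145 (71 above 0 and 74 below). miR169c-5p and miR169l-5p_R+1 passed the filter through CFC replicate 1 alone, which favours a difference below 0. Nothing is therefore read from a count or median that includes them. Of the other 4 guides, 3 were below 0 and 1 above, with a median of -0.24. Since bulk ovaries were sequenced, fewer cells that make a guide and less of it per cell cannot be told apart.

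The signs of miR169p-5p and miR169a-5p depended on which library was left out. Without CFC replicate 1, 4 guides passed the filter of an NE above 1 in at least 1 library, and all 4 differences were above 0 (median 0.55). The 2 miR169f guides then passed through IFC replicate 2 alone, which favours a difference above 0. Nothing is therefore read from that count or median. For miR169p-5p and miR169a-5p, which passed in both phenotypes, the differences were 0.69 and 0.42. miR169c-5p and miR169l-5p_R+1 passed the filter through CFC replicate 1 alone, so only the other 4 guides are given for the other fits. For miR169p-5p, miR169a-5p, miR169f-5p_R+2 and miR169f-5p_R-3, the differences were -2.81, -0.61, -1.49 and -0.26 without CFC replicate 2. In the same order they were -1.49, 0.15, 0.32 and 0.55 without IFC replicate 1. Without IFC replicate 2 they were -0.64, -0.34, -1.10 and -0.54. In that fit the 2 miR169f guides passed the filter through CFC replicate 1 alone, so nothing is read from their signs. In such fits the lone library is assumed to vary as its counterparts do.

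**Figure D2:**
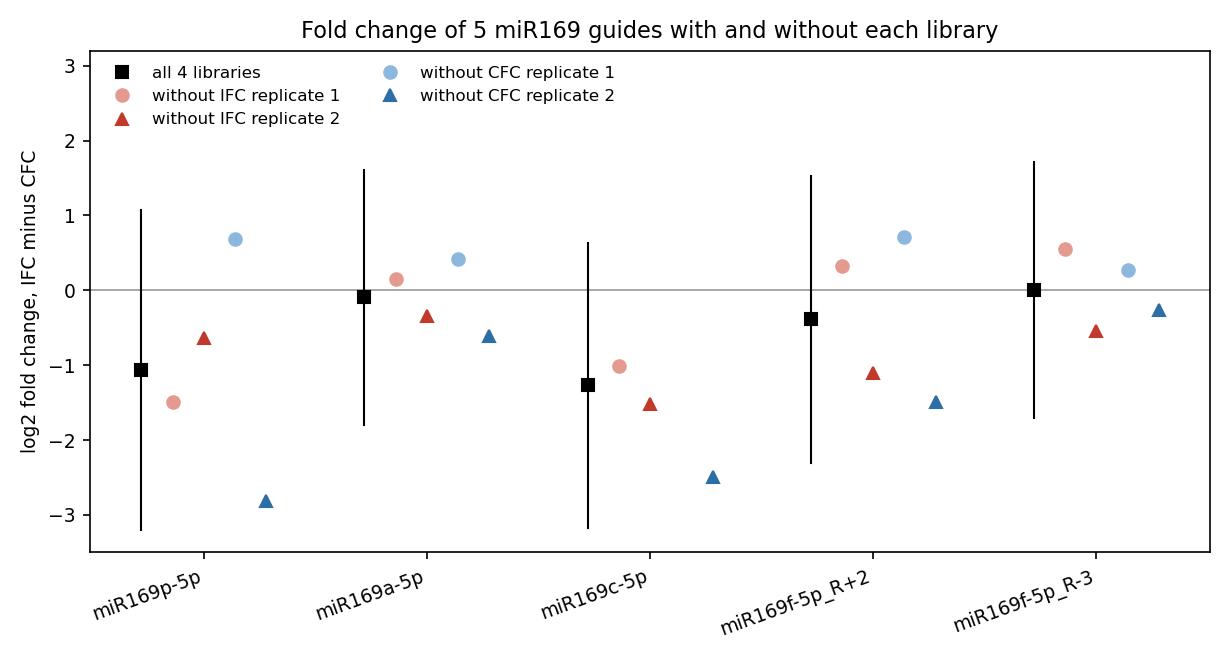
Log2 fold change (IFC minus CFC, on log2(NE + 1)) of the 5 miR169 guides for which a fold is given. Black squares are the limma fit to all 4 libraries with 95% intervals, and coloured points are fits that leave out 1 library each. miR169c-5p passed the filter through CFC replicate 1 alone, so it has no point without that library and nothing is read from its sign. The miR169f guides passed through IFC replicate 2 alone where CFC replicate 1 is left out. Where IFC replicate 2 is left out, they passed through CFC replicate 1 alone. miR169p-5p has its lowest value, -2.81, when CFC replicate 2 is left out and its highest, 0.69, when CFC replicate 1 is left out.

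Added over the 6 guides, miR169 came to 51.1 and 40.6 NE in the IFC libraries, against 251 and 27.9 NE in the CFC libraries. This was 0.265% and 0.153% of the NE of all known miRNAs in IFC, against 0.893% and 0.0987% in CFC. The sum followed miR169p-5p, which made up 79.4% and 54.3% of it in IFC, against 86.1% and 65.4% in CFC. The difference of the mean log2(sum + 1) was -0.88, smaller than the pooled SD of 1.57 between replicates (n = 2 each), and without CFC replicate 1 it was 0.69. Leaving out miR169p-5p, the sums were 10.5 and 18.6 NE in IFC, against 34.9 and 9.67 NE in CFC, so CFC replicate 1 remained the highest library and CFC replicate 2 the lowest.

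Among 12 miRNA families that target transcription factors, miR169 guides ranked 9 by mean NE, at 92.7, and also without CFC replicate 1, where the mean was 39.9. By library the rank was 9 in both IFC libraries, against 8 and 10 in the CFC libraries. The family just above was miR160, which targets auxin response factors, and the one just below was miR167, which targets others of that group. Their sums overlapped with that of miR169 across libraries: miR160 had 73.1 and 111 NE in IFC, against 228 and 78.9 NE in CFC, and miR167 had 28.0 and 25.9 NE in IFC, against 63.5 and 31.6 NE in CFC. Both were also highest in CFC replicate 1. For the guides of the 11 other families, 0 of 43 passed an adjusted or an unadjusted limma p of 0.05, 28 differences were below 0 and 15 above, the median was -0.28, and 12 had groups that did not overlap.

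The 3 miRNAs whose profile over the 4 libraries was nearest to that of miR169p-5p were picked from 76 with a mean NE of at least 5, by the Euclidean distance between log2(NE + 1) values centred on their mean. The nearest was miR393a-5p_R-1, of a family that targets auxin receptor mRNAs, at a distance of 0.54, with 5.35 and 4.32 NE in IFC, against 36.3 and 3.51 NE in CFC. Next came miR159a-3p, the guide that targets GAMYB-like mRNAs, at 1.12, with 171.2 and 124 NE in IFC, against 647 and 165 NE in CFC. The third was miR394a-5p, which targets an F-box mRNA, at 1.28, with 131 and 99.2 NE in IFC, against 288 and 39.5 NE in CFC. What these profiles share is a maximum in CFC replicate 1. With 4 libraries, likeness of this kind is a description only.

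Passenger strands of the same hairpins had profiles of their own, and those of miR169a and miR169c were highest in IFC replicate 2. For miR169p, the passenger was seen only in CFC replicate 1, at 1.43 NE (2 reads), where the guide made up 99.3% of both arms. For miR169a, the passenger sequence miR169a-3p_L+4R-1 had 13.2 and 28.9 NE in IFC, against 22.6 and 11.9 NE in CFC. It stood above its guide in 4 of 4 libraries, and the guide made up 43.9% and 34.1% of both arms in IFC, against 46.3% and 43.2% in CFC. For miR169c, miR169c-3p_R-1 had 6.87 and 23.4 NE in IFC, against 9.32 and 16.7 NE in CFC. This sequence, whose own listed hairpin is on chromosome 2, was above miR169c-5p in 4 of 4 libraries. On the chromosome 9 hairpin listed for miR169c-5p, the passenger was miR169r-3p, with 0 NE in both IFC libraries, against 1.43 and 0 NE in CFC, and it was above the guide in 0 libraries. For miR169l, the passenger had 1.15 and 0.837 NE in IFC, against 0.717 and 0 NE in CFC, which is at most 1 read per library. Because miR169a-5p and miR169c-5p each occur in 2 hairpins, the arms compared need not come from 1 locus.

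**Figure D3:**
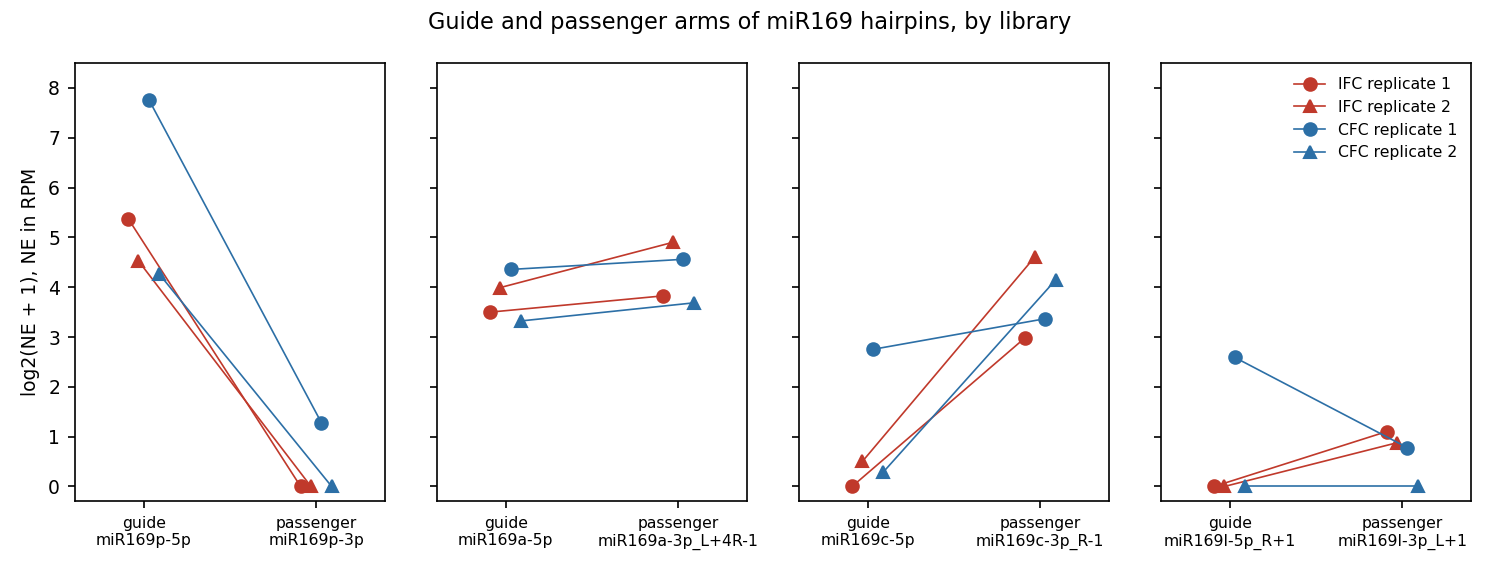
Guide and passenger arm of 4 miR169 hairpins. Each panel is 1 hairpin pair, the vertical axis is log2(NE + 1) with NE in RPM, and each line joins the 2 arms in 1 library (IFC red, CFC blue, circles replicate 1, triangles replicate 2). The guide lies above the passenger in 4 of 4 libraries for miR169p and below it in 4 of 4 for miR169a and for the pair of miR169c-5p with miR169c-3p_R-1.

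In the degradome, 5′ ends of uncapped RNA fragments are sequenced, and a pile of tags where a miRNA would cut is the sign of guided cleavage. The deposited signal is TPB, the tag count of a site per 1000000000 raw reads, and 1 tag was worth 59.1 TPB in the IFC library and 59.9 TPB in the CFC library, which corresponds to 16915044 raw reads in IFC and 16680835 in CFC. CleaveLand gives each site a category, from 0 where the site is the single highest point of the transcript to 4 where it holds 1 tag, and a p-value. Class I was taken as category 0 or 1 with a p at or under 0.05. With 1 library per phenotype, no test between IFC and CFC was possible.

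All 3 NF-YA genes had a Class I site in at least 1 library, GRMZM2G037630 in the CFC library only. The background was 31.9% of the 113 target genes and 75.8% of the 33 transcription factor genes among them, and nothing beyond that background is read from 3 of 3. In all 66 entries the cut lay opposite base 10 of the miRNA, the position where Argonaute slices. The study's pipeline listed only cuts at or next to that position. The entries also repeat the sites of 3 genes over 11 transcripts and near-identical guides, so nothing is read from that count. The entries named 7 guides of 6 sequences, since miR169i-5p_R-3 has the same sequence as miR169f-5p_R-3 and is listed in the degradome only. Guides other than miR169l-5p_R+1 share bases 2 to 18, and a site does not tell which of them made the cut.

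GRMZM2G000686, a gene coding for an NF-YA subunit and matched in RefSeq (Zm-B73-REFERENCE-NAM-5.0) as LOC100194365, had 8 listed transcripts. Added over transcripts it had the most tags of the 3 genes, although per transcript GRMZM2G040349 had the higher TPB in IFC. Each transcript carried 177 TPB in the IFC library, against 187 TPB in the CFC library. In CFC this is not a whole number of tags per transcript, whereas the sum over the 8 is 25, so the sum over transcripts was read as the tags of the gene: 24 in IFC, against 25 in CFC. Such sums were whole for 67.6% of the sites on several transcripts of a gene in IFC and 58.5% in CFC, and whether tags are also shared between genes is not stated, so tag counts, ratios and intervals here depend on that reading. The ratio of IFC to CFC was 0.947 (exact conditional 95% interval 0.518 to 1.73). The site was category 0 in both libraries, with p between 0.0186 and 0.0432 in IFC and between 0.0190 and 0.0443 in CFC, depending on the guide. Annotations of its transcripts named subunit A3 for 5, A6 for 2 and A5 for 1, and the cut lay between bases 901 and 2131 of the transcripts. This was the only NF-YA gene listed for miR169l-5p_R+1, with an alignment score of 4, where a lower score is a better match, and it was not listed for miR169f-5p_R+2. The remaining guides scored 2 to 3.5 on it.

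GRMZM2G040349, matched in RefSeq as LOC100194182 with the synonym NF-YA7, had 2 listed transcripts, both annotated as subunit A3. Each carried 207 TPB in the IFC library, against 150 TPB in the CFC library. Added up, these are 7 tags in IFC, against 5 tags in CFC, a ratio of 1.38 (exact conditional 95% interval 0.377 to 5.52). The site was category 0 in both libraries. miR169f-5p_R+2 gave the lowest p, 0.00899 in IFC and 0.00923 in CFC, and the 18-base guides the highest, 0.0432 in IFC and 0.0443 in CFC. miR169p-5p, the most abundant guide, scored 3.5 on it with a p of 0.0159 in IFC and 0.0163 in CFC. The cut was at base 2155 of the first transcript and base 1884 of the second.

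GRMZM2G037630, annotated as subunit A6 and without a match by ID in the RefSeq table, had 1 listed transcript, cut at base 807. It carried 59.1 TPB in the IFC library, against 120 TPB in the CFC library. These are 1 tag in IFC, against 2 tags in CFC, a ratio of 0.493 whose exact conditional 95% interval reaches from 0.00836 to 9.47. The site was category 4 in IFC with p between 0.258 and 0.996, and category 0 in CFC with p between 0.00240 and 0.0443. The change of category thus rested on 1 tag, and the gene is Class I in the CFC library only. The study placed this gene in Class III, and GRMZM2G000686 and GRMZM2G040349 in Class I.

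Over the 3 genes there were 32 tags in IFC, against 32 tags in CFC, a ratio of 0.986 (exact conditional 95% interval 0.585 to 1.66). Over the 81 sites of the whole table with signal in both libraries, the median ratio was 0.877. By the highest TPB of 1 transcript per gene, the NF-YA genes ranked 34 to 53 of 113 target genes in IFC and 37 to 40 in CFC. Among 33 transcription factor genes they ranked 19 to 24 in IFC and 22 to 25 in CFC. These ranks do not add TPB over transcripts, which for GRMZM2G000686 gave 1419 TPB in IFC, against 1499 TPB in CFC. Genes whose tags are split over many transcripts are therefore ranked low, and ranks on added TPB were not taken. The strongest transcription factor site, that of the auxin response factor gene GRMZM2G159399 cut by miR160, had 52379 TPB in IFC, against 66723 TPB in CFC. The higher miR169p-5p level of CFC replicate 1 cannot be followed into the degradome, whose CFC library mixed both CFC samples.

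**Figure D4:**
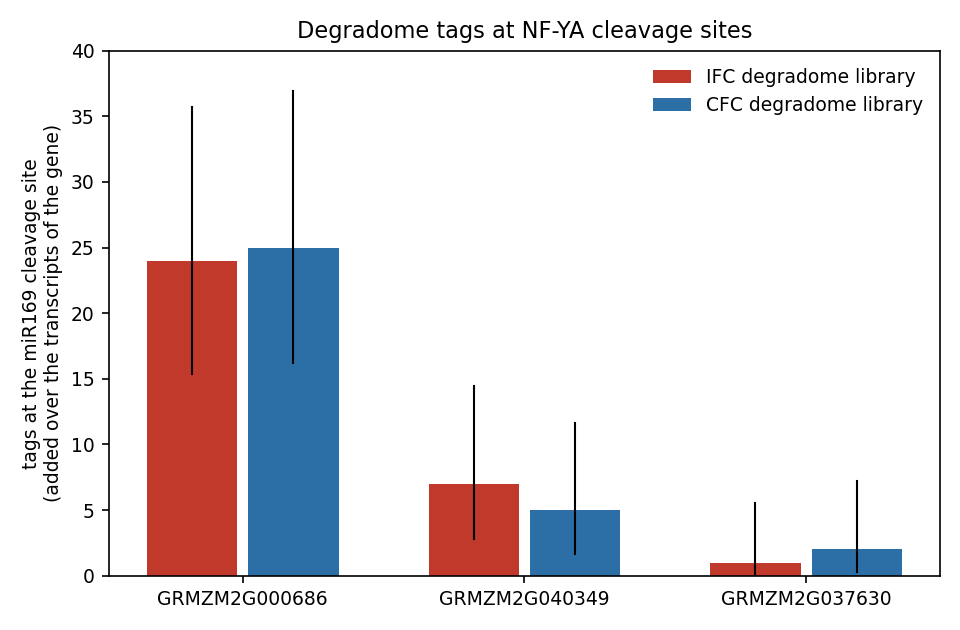
Degradome tags at the miR169 cleavage site of each NF-YA gene. The vertical axis counts tags added over the transcripts of a gene, bars are the IFC (red, left) and CFC (blue, right) libraries, 1 of each, and lines are exact Poisson 95% intervals. The bars stand at 24 tags in IFC and 25 in CFC for GRMZM2G000686, 7 in IFC and 5 in CFC for GRMZM2G040349, and 1 in IFC and 2 in CFC for GRMZM2G037630, and the intervals overlap at each gene.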

How the data were processed

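Small RNA was analysed from 2 IFC and 2 CFC ovary samples and degradome tags from 1 IFC and 1 CFC library. Per the study's methods, the replicates were taken from different ear rows. Whether they are separate plants is not stated, so p-values measure the spread between these samples only. The labels' extraction text names retina and an mRNA kit, at odds with maize ovary small RNA, and the study's methods were followed.

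The authors removed adapters and other RNA classes, mapped reads to miRBase precursors and deposited NE, which is RPM. Of values under 50 NE, 66.3% to 73.8% per library were whole reads (within 0.01 read), so no count test was run. For the degradome, the authors deposited the signal as TPB, with a CleaveLand category, p-value and alignment score for each site. The genome build and the transcript set behind the degradome table were not given in the sources used here. A table of predicted targets was not used, and 1 emptied line of the small RNA table was not analysed here.

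Known miRNAs that exceeded an NE of 1 in any library were compared on log2(NE + 1) by limma 3.58.1 under R 4.3.3, with lmFit and eBayes, two-sided and unblocked, and p-values were adjusted over all 145. The study's one-tailed test per miRNA was not used at this n. With that test and its fold and level criteria, the study listed miR169p-5p as lower in IFC. The study also measured miR169 and the NF-YA gene GRMZM2G040349 by qRT-PCR at silking and on later days, which is not covered here. Intervals on tags are exact Poisson or conditional. Python 3.11.15, numpy 2.4.6, pandas 2.3.3, scipy 1.17.1 and matplotlib 3.10.9 were used. RefSeq gave names for 2 of the 3 NF-YA genes. The members, lists and rules were chosen with earlier results of these data known. Named were all miR169 guides and their NF-YA transcripts, passengers of hairpins whose guide is listed, the 3 profiles nearest to miR169p-5p, the other genes listed for the guides and, for rank, the strongest transcription factor site. The families beside miR169 in rank were named after their values were seen. Alternatives changed 1 choice at a time: the pseudocount (0.5 or 5), the filter (none, or an NE of 5), scaling (median-of-ratios or TMM), a robust trended fit, a replicate block, each library left out, stricter Class I rules, TPB of 1 transcript and rescaled TPB.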

Additional observations from a re-analysis of the deposited data

How the results depend on the processing

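Under all 12 alternative fits, 0 known miRNAs and 0 miR169 guides had an adjusted limma p under 0.05, and the adjusted p of a guide ranged from 0.262 to 0.999. The number of guides with a difference below 0 was 0 (of 4) to 6 when 1 library was left out, with 3 of 6 without IFC replicate 1 and 0 of 4 without CFC replicate 1. Counts out of 6 include miR169c-5p and miR169l-5p_R+1, which CFC replicate 1 alone carried through the filter. They are therefore not comparable with the count out of 4. In that count the 2 miR169f guides passed the filter through IFC replicate 2 alone. Without IFC replicate 2 they passed through CFC replicate 1 alone. Nothing is read from these counts, or from the ends of the miR169f ranges below that come from those fits. Medians over all known miRNAs in these fits were 0.21 without IFC replicate 1, -0.37 without IFC replicate 2, -0.05 without CFC replicate 1 and -0.07 without CFC replicate 2. With 1 library left out, the log2 fold change ranged from -2.81 to 0.69 for miR169p-5p, from -0.61 to 0.42 for miR169a-5p, from -2.50 to -1.01 for miR169c-5p (which passed the filter through CFC replicate 1 alone), from -1.49 to 0.71 for miR169f-5p_R+2, from -0.54 to 0.55 for miR169f-5p_R-3 and from -2.44 to 0.69 for the guide sum. The sign of miR169f-5p_R-3 also turned with a pseudocount of 0.5 (-0.037), median-of-ratios scaling (-0.036) and TMM scaling (-0.015), and that of miR169a-5p with TMM scaling (0.023), which moved the median of all known miRNAs to 0.10. The cause was not tested. Requiring Class I in both libraries left 2 of 3 NF-YA genes (GRMZM2G000686 and GRMZM2G040349). That rule left 25 of the 113 target genes and 17 of the 33 transcription factor genes. A CleaveLand p at or under 0.01 left 2 NF-YA genes (GRMZM2G037630 and GRMZM2G040349). It left 17 of the 113 target genes and 12 of the 33 transcription factor genes. GRMZM2G037630 passed it with a CleaveLand p of 0.0024 in the CFC library only, from 2 tags. Nothing beyond these backgrounds is read from 2 of 3. Rescaling TPB by the median ratio of 0.877 gave 1.08 for GRMZM2G000686, 1.57 for GRMZM2G040349 and 0.56 for GRMZM2G037630. The labels do not say that a replicate number marks a shared ear. Deviations of the same-numbered samples from their group means correlated at 0.254 across 145 miRNAs, which are not independent replicates, and with the replicate number as a block 0 miRNAs were called (smallest adjusted p 0.573) and miR169p-5p stayed at -1.06. Depth limits 4 of the 6 guides, whose values come to 8 reads or fewer on the read unit assumed, and the NF-YA site ratios, whose intervals each span 1.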

Other observations

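Outside NF-YA, the guides were listed against 2 further genes, both only through the 18-base sequence of miR169f-5p_R-3 and its duplicate name miR169i-5p_R-3. The chaperonin gene GRMZM2G083095 had 29.6 TPB per transcript in the IFC library, against 0 TPB in the CFC library, at category 4. GRMZM2G115424, annotated as alfin-like 7, had 14.8 TPB in IFC, against 30.0 TPB in CFC, at category 4 in IFC and 3 in CFC. Their p-values ran from 0.317 to 0.9496, so neither was a Class I site. Passenger strands of miR169 were named in 23 degradome entries over 12 genes, of which 0 were Class I, with a lowest p of 0.242. Added over 7 sequences, the passengers came to 21.2 and 54.0 NE in IFC, against 36.2 and 28.6 NE in CFC, with IFC replicate 2 the highest library and IFC replicate 1 the lowest. Of the guides, 5 of 6 were highest in CFC replicate 1, and 3 of the 7 passengers were, where 52 of the 161 known miRNAs were. miR169c-5p and miR169l-5p_R+1 exceeded an NE of 1 in that library alone, and the 3 passengers had at most 2 reads there. No contrast between the arms is read from these counts.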
